A study of Mus musculus with 4 samples.

Results

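The wide 3' UTR labelled peaks are the regions of m6A enrichment in mouse natural killer (NK) cells that carry a 3' UTR label and extend over more than 1000 nt of the genome. Among 20727 distinct peaks, 11046 carried that label and 1279 of these were wide. They were assigned to 1222 of the 12351 genes with any peak (9.89%), with 2 wide peaks in 41 genes and 3 in 8 genes. A peak in this list runs from its first to its last genomic base and introns in between are counted in its span. The wide peaks were therefore separated by the GENCODE gene models of the mouse build GRCm38. In 1025 peaks (80.1%, 95% Wilson interval 77.9 to 82.2%) the span held an annotated intron or joined at least 2 exon blocks of the assigned gene. Another 150 peaks (11.7%, 10.1 to 13.6%) lay wholly inside 1 exon. The remaining 103 peaks did neither, and the gene of 1 peak was not found in the gene models.

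The libraries came from sorted splenic NK cells of C57BL/6 mice, whose NK cells had been expanded in vivo by injection of a pLIVE-IL-15 plasmid, which makes the animals produce the cytokine IL-15. Fragmented poly(A) RNA was pulled down with an antibody against m6A in 2 libraries, and 2 input libraries from such cells had no antibody step. Both groups share strain, organ, cell type and IL-15 treatment, and the mice of the study were 6 to 10 weeks old. The number of animals behind a library is not given in the sources used here. The authors deposited 1 pooled peak list with no value per library, so the depth is unknown, no error between replicates can be given, and the intervals below cover counting error over peaks only.

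N6-methyladenosine (m6A) is placed on mRNA during transcription by a complex built around the methyltransferase METTL3, within a short consensus called DRACH. In mammalian mRNA the mark is known to be dense in long last exons and around stop codons, and 3' UTRs also hold the sites of microRNAs and of RNA-binding proteins that set stability and translation. Reader proteins of the YTH family bind the mark and can alter the fate of the transcript.

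Short stretches around a GGACT, a form of DRACH, show where such sites lie in the named peaks. The windows are read 5' to 3' on the transcript strand from the GENCODE transcripts of GRCm38, capitals mark the motif, and the site nearest the stop codon was taken in each peak. The first 8 belong to peaks within 1 exon that had the highest fold enrichment, the lowest p or a place in a gene list. The last 5 belong to intron-spanning peaks of genes with roles in NK cells or in IL-15 signalling and were chosen after their values were seen.
Hoxc8, chr15:102992841-102992861, plus strand: gaaaataaGGACTaaggaaaa
Shank1, chr7:44357248-44357268, plus strand: accaaggaGGACTatgtggac
Col1a1, chr11:94952165-94952185, plus strand: gggttcttGGACTgttgaagg
Scn2b, chr9:45127401-45127421, plus strand: attataagGGACTtaagtcca
Asxl2, chr12:3498604-3498624, plus strand: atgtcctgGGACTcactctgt
Nfia, chr4:98114623-98114643, plus strand: ataatgcaGGACTtttgtaat
Ago3, chr4:126341938-126341958, minus strand: tctggaagGGACTccagtagg
Pax5, chr4:44525075-44525095, minus strand: aagatgttGGACTatttttct
Gzma, chr13:113095751-113095771, minus strand: ggtggaaaGGACTcctgcaat
Tyrobp, chr7:30417483-30417503, plus strand: tgggatcaGGACTcccgttgg
Klra8, chr6:130115382-130115402, minus strand: gaacattgGGACTgtcctctc
Jak1, chr4:101153171-101153191, minus strand: atagcaaaGGACTgtgccgct
Klf2, chr8:72320999-72321018, plus strand: tatttattGGACcttaggac

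Counted from the first base of the stop codon on the longest coding transcript, the printed motif of Hoxc8 began at -4 nt, so that it runs into the stop codon. In Shank1 it began at -79 nt and in Gzma at -169 nt, both inside the coding sequence. The others began downstream, at 66 nt in Klra8, 84 nt in Tyrobp, 90 nt in Klf2, 314 nt in Jak1 and 556 nt in Col1a1. In the long 3' UTRs the first GGACT of the peak was far from the stop codon, at 1107 nt in Scn2b, 1603 nt in Asxl2, 3398 nt in Nfia, 3526 nt in Ago3 and 6421 nt in Pax5. The Klf2 peak is shown with a GGAC because it held no GGACT. Of the 136 one-exon peaks that could be placed on a longest coding transcript, 100 (73.5%) held a GGACT. Among 7446 consecutive 3' UTR windows of 1432 nt, the median length of those peaks, 71.5% held one. Of 931 placed intron-spanning peaks, whose median exonic part there was 360 nt, 349 (37.5%) held a GGACT, beside 31.6% of 100168 transcript windows of that length. Windows have a fixed length, while the intron-spanning peaks held 3 to 18315 nt there and mostly lay near the stop codon. Length and position are thus not matched, and these shares do not test enrichment of the motif. A match gives the letters only and does not show which adenosine was methylated.

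Span and exonic content were far apart in the intron-spanning peaks. Their median span was 3159 nt (interquartile range 1770 to 7221 nt), while the median number of bases in exons of the assigned gene was 421 nt (298 to 726 nt). A median of 85.9% of the span thus lay outside exons of the assigned gene, and in 36.4% of these peaks at least 90% of it did. The exonic part exceeded 1000 nt in 192 of the 1025 peaks (18.7%). Of the 931 that were placed, 388 (41.7%) held 1 intron of the longest coding transcript, 182 held 2 and 178 held at least 3. In 183 no whole intron of that transcript lay in the span, and the class rests on other isoforms. The one-exon peaks had a median length of 1514 nt (1177 to 2157 nt), all of it exonic. For comparison, the 9767 3' UTR labelled peaks of at most 1000 nt, called narrow here, had a median exonic part of 181 nt.

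**Figure D1:**
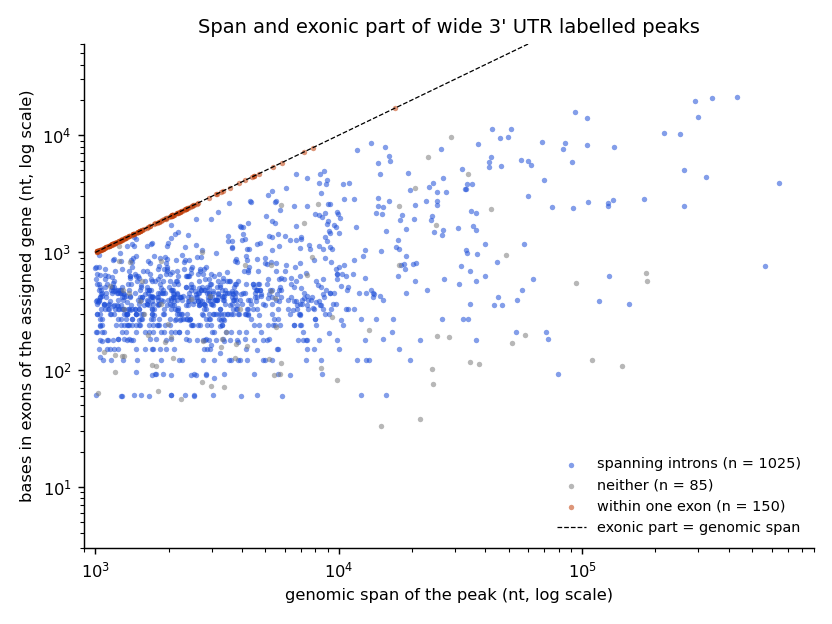
Genomic span of each wide 3' UTR labelled peak (horizontal, nt, log scale) against its bases in exons of the assigned gene (vertical, nt, log scale), 1 point per peak, coloured by kind, for peaks with at least 1 exonic base. The one-exon peaks lie on the dashed line of equal values, and most intron-spanning peaks lie far below it, around a median exonic part of 421 nt.

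The extremes show how little the span says of the exonic part. The longest span, 640786 nt, was that of a peak on Cntnap5c (chromosome 17, 57769570 to 58410355), a contactin-associated protein gene, and it held 3931 exonic nt. A span of 563071 nt on Pard3bos2, an antisense RNA gene, held 770 exonic nt and overlapped exons of other genes. The longest exonic parts were 21191 nt in 108 blocks on Hmcn1, which encodes the extracellular matrix protein hemicentin, and 20688 nt on Pclo, the presynaptic protein piccolo. The peaks on Dnah7b, an axonemal dynein, and Cacna1e, a voltage-gated calcium channel, followed with 19560 and 15632 nt. All 4 began far upstream in the coding sequence, between -16902 nt (Hmcn1) and -5425 nt (Cacna1e) from the stop codon, and that of Dnah7b held 0% of the 3' UTR of the longest coding transcript. At the lower limit of the rule, the narrowest wide peak, 1001 nt on Clp1, an RNA kinase of pre-mRNA 3' end processing, had a fold enrichment of 91.0, and the widest peak left out, 997 nt on Cdc123, had 2.97.

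Peaks within 1 exon had high fold enrichments. Fold enrichment is the authors' ratio of immunoprecipitate over input for a peak, and a value of at least 5, the value the study itself used to select genes, is called high here. High values were found in 131 of the 150 one-exon peaks (87.3%, 81.1 to 91.7%) and in 331 of the 1025 intron-spanning peaks (32.3%, 29.5 to 35.2%), against 34.6% of all peaks in the list. Over all wide peaks the share was 39.8% (509 peaks), while among the narrow 3' UTR labelled peaks it was 14.4%. The median fold was 17.1 (interquartile range 9.48 to 64.5) within 1 exon, 2.29 (1.70 to 9.48) across introns and 1.97 in narrow peaks. Neither the label nor the width in the rule uses the fold, but peaks are not replicates, and the list allows no test of these differences over libraries.

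**Figure D2:**
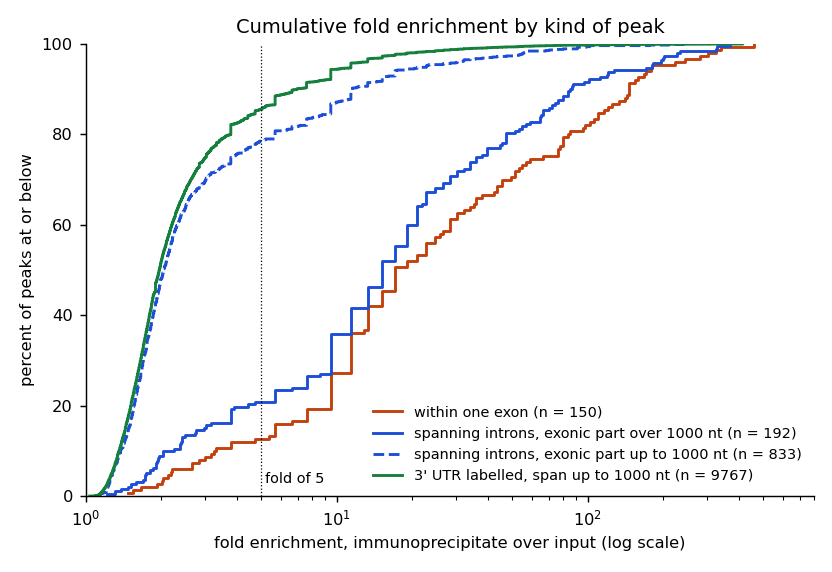
Percent of peaks (vertical) at or below each fold enrichment of immunoprecipitate over input (horizontal, log scale), as 1 line for each kind of peak. The lines of one-exon peaks and of intron-spanning peaks with over 1000 exonic nt lie to the right, with medians of 17.1 and 15.2, and those of the other intron-spanning peaks and of narrow peaks lie close together at medians of 2.05 and 1.97.

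The intron-spanning peaks differed among themselves by exonic length. High fold was found in 9.30% of the 129 peaks with at most 200 exonic nt, in 19.5% of 333 with more than 200 and up to 400 nt, and in 20.5% of 244 with up to 600 nt. The share was 40.9% of 127 peaks with up to 1000 nt, 66.3% of 86 with up to 2000 nt and 89.6% of 106 above that. At matched exonic length, the one-exon peaks with up to 2000 nt had 87.8% (79.8 to 92.9%) beside the 66.3% (55.8 to 75.4%) of those that span introns. Above 2000 nt the values were 86.5% (74.7 to 93.3%) and 89.6% (82.4 to 94.1%), whose intervals overlap. Across peaks the Spearman correlation of fold with exonic length was 0.46 over the 1025 intron-spanning peaks and 0.28 over the 150 one-exon peaks. All points share the same libraries, so these values describe this list.

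**Figure D3:**
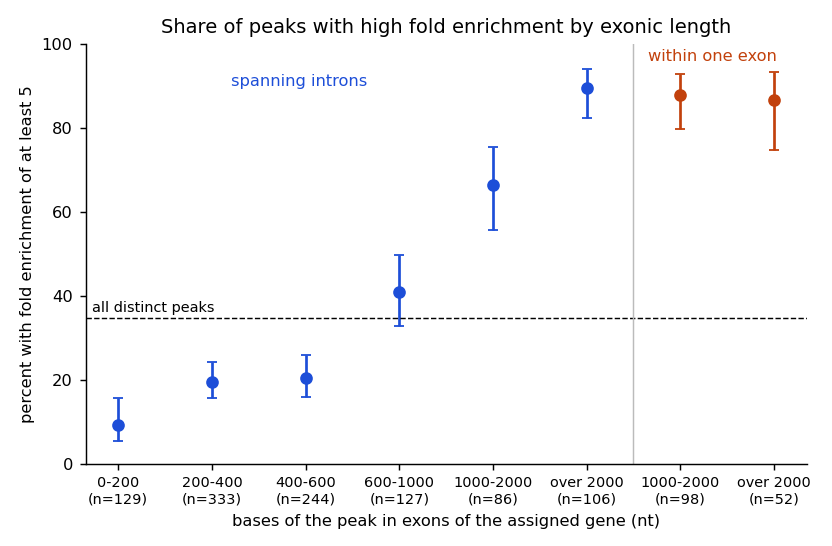
Percent of wide peaks with a fold enrichment of at least 5 (vertical) by their bases in exons of the assigned gene (horizontal, nt), with 95% Wilson intervals that cover counting error only, and a dashed line at 34.6% for all distinct peaks. The share climbs from 9.30% to 89.6% across intron-spanning peaks and stands at 87.8% and 86.5% in one-exon peaks.

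Fold and p went together in the one-exon peaks and hardly in the intron-spanning ones. The Spearman correlation of fold with log10 p, where a lower log10 p is the stronger call, was -0.71 over the 150 one-exon peaks and 0.16 over the 1025 intron-spanning peaks, again as a description of this list. The list gives the log10 of the peak-calling p, with no adjustment for multiple testing, and p was under 0.001 in 1003 wide peaks (78.4%), against 61.5% of all peaks. This held for 81.1% of intron-spanning peaks but only for 65.3% of one-exon peaks. Of the 131 one-exon peaks with high fold, 46 (35.1%) had a p that was not under 0.001. The same held for 130 of 331 intron-spanning peaks with high fold (39.3%) and for 38.7% of all wide ones, so it was not particular to one-exon peaks. The pair of fold 9.48 and log10 p -1.69 was shared by 12 one-exon peaks (8%), 31 intron-spanning peaks (3.02%) and 845 peaks of the whole list (4.08%). Other pairs recurred too. The pair of 11.4 and -2.09 was shared by 12 one-exon peaks (8%), 24 intron-spanning peaks (2.34%) and 532 peaks of the whole list (2.57%). That of 17.1 and -3.33, which holds the median fold of one-exon peaks, was shared by 8 of them (5.33%) and by 13 intron-spanning peaks (1.27%). The reads behind such pairs are not given in the list, and whether they were few was not tested. Median log10 p was -5.66 within 1 exon, -10.3 across introns and -4.52 in narrow peaks. With p under 0.001 required, the median fold of one-exon peaks was 42.9, and 24.2% of the intron-spanning peaks then had high fold.

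Genes with both a wide and a narrow 3' UTR labelled peak allow a comparison within the same gene. Where a gene had several such peaks, the one of highest fold was taken on each side. There were 43 such genes among those with a one-exon peak, and the wide peak had the higher fold in 38 of them (88.4%), with a median log2 difference, wide minus narrow, of 2.20 (interquartile range 0.99 to 3.96). The difference was 7.04 for Asxl2, a chromatin regulator of the Polycomb-associated deubiquitinase, with folds of 324 and 2.47, and 6.79 for Mrps26, a mitochondrial ribosomal protein, with 243 and 2.19. Among the 5 genes in which the narrow peak was higher than the one-exon peak were Mical3, an actin-regulating monooxygenase (folds of 11.4 wide and 56.9 narrow), and Coro2a, a coronin (1.67 and 3.17). Mical3 also had a wide peak of the neither kind at a fold of 89.1, which was not part of this comparison. The named genes of these sentences, Asxl2 apart, were chosen after their values were seen. Among 300 genes with an intron-spanning and a narrow peak, the wide one was higher in 124 and lower in 168, with a median log2 difference of -0.16.

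The 2 kinds lay in different places on the transcript. Introns were removed and each peak was set on the longest coding transcript that its gene has. The intron-spanning peaks were centred at a median of -35 nt from the stop codon, and 669 of 931 (71.9%, 68.9 to 74.7%) contained it, whereas the one-exon peaks were centred at a median of 1390 nt past it and 26 of 136 (19.1%) contained it. Narrow peaks were centred at 620 nt and 17.2% contained the stop codon. The centre lay within 200 nt of the stop codon in 63.6% of intron-spanning, 3.68% of one-exon and 24.8% of narrow peaks. It lay over 1000 nt past the stop codon in 66.9% of one-exon, 5.80% of intron-spanning and 36.7% of narrow peaks. A peak that reaches across an intron and carries a 3' UTR label must extend upstream where the 3' UTR is a single exon. The position of the intron-spanning kind thus follows in part from how it was defined. A one-exon peak needs an exon of over 1000 nt, so its position past the stop codon also follows in part from its definition.

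**Figure D4:**
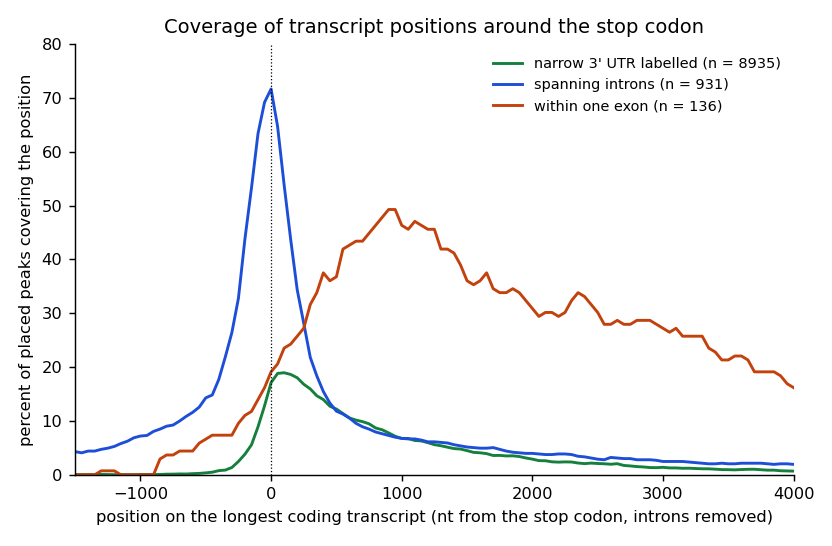
Percent of placed peaks that cover each position (vertical) by distance from the stop codon on the longest coding transcript with introns removed (horizontal, nt), in steps of 50 nt, with transcripts that do not reach a position counted as not covering it. Intron-spanning peaks reach 71.6% at the stop codon, one-exon peaks reach 49.3% at 900 nt and narrow 3' UTR labelled peaks reach 18.9% at 100 nt.

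The 3' UTR label therefore covered a good deal of coding sequence. The exonic part was centred in coding sequence in 556 of 931 intron-spanning peaks (59.7%) and in the 3' UTR in 375 (40.3%). Their median content was 196 nt of coding sequence and 134 nt of 3' UTR, and 620 of them (66.6%) held the last intron. Of the one-exon peaks, 125 of 136 (91.9%) were centred in the 3' UTR and 121 (89.0%) lay inside the last exon. These belonged to long 3' UTRs, with a median length of 2748 nt against 736 nt for intron-spanning and 1454 nt for narrow peaks. An exon that holds such a peak must exceed 1000 nt, so this length follows in part from how the kind was defined. A one-exon peak covered a median of 45.7% of the 3' UTR, and 58 (42.6%) ended at the last base of the transcript. Across introns the corresponding values were 22.2% and 33.9%, and 26.1% of narrow peaks ended at the last base.

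The letters of the one-exon peaks were close to those of their surroundings. They held 20.03 DRACH sites per kb (any base but C, a purine, then A, C and any base but G, read on the transcript strand) beside 19.7 per kb in the parts of the same 3' UTRs that no peak touched. GGAC, which every GGACT contains, stood at 2.92 beside 2.76 per kb, and the G and C content was 43.7% beside 43.4%. The AU-rich pentamer ATTTA, part of the elements that destabilising proteins bind, stood at 1.89 beside 1.63 per kb. The 17 one-exon peaks with fold under 5 held 4.05 GGAC per kb and the 119 with high fold held 2.84. In the intron-spanning peaks GGAC reached 3.93 per kb, but much of their sequence is coding and the comparison with 3' UTR sequence (2.61 per kb) mixes position with enrichment.

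Among one-exon peaks, the highest folds were found on genes of patterning, matrix, chromatin and ion channel function. Hoxc8, a homeobox factor of trunk patterning, had the highest (chromosome 15, 102991889 to 102994111, plus strand), with a fold of 459 and a log10 p of -121. Its 2223 nt fill 1 exon of another isoform, and 1259 of them lie on the longest coding transcript, over the end of the coding sequence and the whole 966 nt 3' UTR. A peak labelled 5' UTR with a fold of 24.7 overlapped it. Col1a1, a chain of type I collagen, had a fold of 341 (log10 p of -122) over 82.2% of its 3' UTR, to the end of the transcript (chromosome 11, 94951873 to 94953042). Asxl2 had 324 (-77.2), from 345 to 2952 nt past the stop codon of a 9841 nt 3' UTR (chromosome 12, 3497354 to 3499961). Scn2b, the beta subunit of a sodium channel, had 302 (-71.6) over 63.4% of the 3' UTR (chromosome 9, 45127086 to 45129473). The peak list gives no expression level or input count, so from it a ratio on a gene with few input reads cannot be told apart from one on a gene with many.

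The lowest p among one-exon peaks was found on Nfia, a nuclear factor I transcription factor (chromosome 4, 98113010 to 98115164), with a log10 p of -253 and a fold of 146. Its second wide peak spanned introns and had a fold of 44.6. Shank1, a postsynaptic scaffold gene, followed at -127 with a fold of 222 (chromosome 7, 44356888 to 44358386), and its peak crossed the stop codon, from -447 to 1051 nt. The longest one-exon peaks were of another kind. The longest, 17094 nt on D1Ertd622e, had a fold of 17.1 with a log10 p of -3.33, a pair shared by 8 one-exon peaks. That of 7230 nt on Arfgef3, a regulator of insulin granule biogenesis, had 19.0 with -3.75. On D10Wsu102e 7831 nt had a fold of 28.4. The peak on Cspg5, a brain proteoglycan, combined length (5847 nt, 93.8% of the 3' UTR) with a fold of 110 and a log10 p of -101.

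Intron-spanning peaks of very low p included those of Ccl5, Ftl1 and Rps4x, at low fold. Ccl5, a chemokine that NK cells store and secrete, had a fold of 1.76 and a log10 p of -1480 (chromosome 11, 83525778 to 83528801), with 361 exonic nt in a span of 3024 nt. Rps4x, a protein of the small ribosomal subunit, had a fold of 2.40 (-789). Ftl1, the ferritin light chain, had 1.86 (-801). All 3 covered the whole 3' UTR, which measured 89 nt in Rps4x, 163 nt in Ftl1 and 199 nt in Ccl5. The highest folds stood elsewhere. The first was 368 on Gm26540, a long noncoding RNA gene. The whole span of 2579 nt lay in exonic sequence of Dennd5b on the other strand, and 1158 nt in exons of Gm26540, so the gene it comes from, and with it the intron in its span, cannot be told apart. Next came 326 on Tsks, a substrate of testis-specific kinases, 324 on Igsf3, an immunoglobulin superfamily member, and 241 on Ogdhl, a 2-oxoglutarate dehydrogenase-like enzyme. The Tsks peak joined 8 exon blocks and its 3' UTR had 23 nt.

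NK effector and receptor genes carried wide peaks of the intron-spanning kind. Of 49 listed genes, 44 had a peak of any kind and 10 of these (22.7%) had a wide 3' UTR labelled one, beside 9.89% of all genes with a peak. They held 11 such peaks, of which 11 spanned introns, as did 80.1% of all wide peaks. A p under 0.001 was given for 11 of the 11, beside 61.5% of all peaks, 78.4% of the wide ones and 81.1% of the intron-spanning ones. High fold was found in 0 of the 11, beside 34.6% of all peaks, 39.8% of the wide ones and 32.3% of the intron-spanning ones. The folds ran from 1.23 to 2.50 with a median of 1.53. These peaks held 120 to 744 exonic nt, and intron-spanning peaks with at most 1000 exonic nt had a median fold of 2.05. A peak of high fold, of any label, was found in 2 of the 44 genes, so low fold was not confined to their wide peaks. In the lists described below it was found in 25 of 58 genes (IL-15 signalling), 17 of 45 (lymphoid transcription factors) and 9 of 21 (m6A factors). For 3' UTR binding, microRNA and decay factors it was 15 of 46, and for markers of other blood cells 7 of 21. The share over all genes with a peak was not computed, so these counts have no background beside them. Gzma, the serine protease granzyme A, had a fold of 1.53 and a log10 p of -624 (chromosome 13, 113093825 to 113095939), from -345 nt to the end of a 67 nt 3' UTR. Tyrobp, the adaptor DAP12 of activating receptors, had 1.48 (-179). The activating receptor Ly49H is encoded by Klra8, where the fold was 1.77 (-155) and a span of 9860 nt held 648 exonic nt. Klrd1, the CD94 partner of the NKG2 receptors, had the highest fold of the list at 2.50 (-100). The others were Klra9, Klre1, Cd160, Klrb1b and Klrc2, at folds from 1.23 to 1.89, and are given to complete the list. Klra8, Klra9, Klrb1b and Klrc2 have close relatives in their gene families, and reads may have been split or shared among them.

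**Figure D5:**
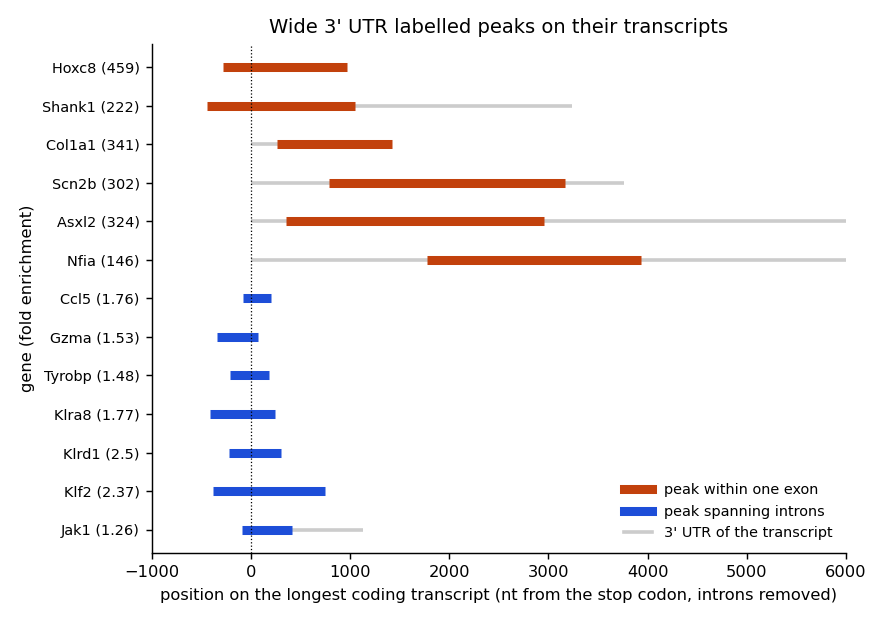
Wide peaks of 13 named genes on their longest coding transcripts, with distance from the stop codon in nt and introns removed (horizontal), 1 row per gene with the fold enrichment in brackets, thick bars for peaks, thin lines for the 3' UTR (cut at the right edge where longer). The 6 one-exon peaks, at folds of 146 to 459, cover 966 to 2608 nt of 3' UTRs that measure 966 to 9841 nt, and the 7 intron-spanning peaks, at folds of 1.26 to 2.50, sit around the stop codon. The one-exon rows were picked by highest fold or lowest p and the intron-spanning rows from the gene lists, so the gap in fold follows from this choice. Left out are intron-spanning peaks of high fold, such as Igsf3 at 324, and one-exon peaks of lower fold, such as Ago3 at 11.4.

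Genes of IL-15 and related cytokine signalling had peaks of both kinds. Of 58 listed genes with a peak, 10 (17.2%) had a wide one, beside 9.89% of all genes with a peak. The 12 peaks comprised 2 within 1 exon and 10 across introns. High fold was found in 4 of the 12, about the share of all peaks (34.6%) and of all wide peaks (39.8%). Bcl2, which protects lymphocytes from apoptosis downstream of IL-15, had a one-exon peak of fold 125 (log10 p of -38.4, chromosome 1, 106710534 to 106711880). That exon is not part of the longest coding transcript, on whose 3' UTR the narrow peaks of Bcl2 had folds of 1.82 and 9.75. Pik3ca, a catalytic subunit of PI3K, had a one-exon peak with 1 of the recurrent pairs, 9.48 and -1.69. Map2k2, the kinase MEK2, had 3 wide peaks at folds of 1.74, 1.76 and 23.4, of which the last extended past the end of its longest coding transcript. Jak1, the kinase bound to the receptor, had 1.26 (-20.7), Mapk3, the kinase ERK1, 1.76 (-23.3), and Rheb, the GTPase that activates mTORC1, 2.57 (-13.5). Socs2, a suppressor of cytokine signalling, had 15.2 (-2.91), a pair shared by 16 intron-spanning peaks, over a span of 18011 nt. The remaining genes were Eif4ebp1, a translation repressor under mTORC1, at 1.68 (-7.04), Ptpn2, a phosphatase of JAK proteins, at 2.50 (-6.79), and Bcl2l11, the proapoptotic protein BIM, at 1.66 (-1.87). Pik3ca, Socs2 and these 3 genes lie outside the rule for naming and are given to complete the list, with their values known.

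Among lymphoid transcription factors 4 of 45 genes with a peak had a wide one (8.89%), close to the 9.89% of all genes with a peak. High fold was found in 1 of these 4 peaks, a count too small to set beside the 34.6% of all peaks and 39.8% of wide ones. Klf2, a quiescence factor of lymphocytes, had a fold of 2.37 and a log10 p of -630 over its last intron and whole 3' UTR. Klf3 had 7.03 (-15.2) and Irf8, a factor of myeloid and lymphoid differentiation, 1.56 (-45.3). Eomes, a T-box factor of NK maturation, had 1.17 (-2.31) in a peak of the neither kind. In the list of m6A writers, erasers and readers, 1 of 21 genes with a peak (4.76%, beside the same 9.89%) had a wide one, Rbm15, an adaptor of the methyltransferase complex, at 2.09 (-10.2). Among 46 factors of 3' UTR binding, microRNA action and decay with a peak there were 2 (4.35%), Hnrnpd, the AU-rich element binder AUF1, at 1.34 (-15.0), and Ago3, an Argonaute protein, with 1948 nt inside a 12742 nt 3' UTR at 11.4 (-2.09). The fold and p of Ago3 were those of 12 one-exon peaks.

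Markers of other blood cells of the spleen were represented too. Of 27 such genes 21 had a peak and 3 of these (14.3%) had a wide 3' UTR labelled one, beside 9.89% of all genes with a peak. They were H2-Ab1, an MHC class II chain, at a fold of 1.31 (-181), Cd3g, a chain of the T cell receptor complex, at 3.79 (-46.8), and Pax5, the B cell identity factor, with a one-exon peak of 1855 nt at 75.9 (-17.1) that ended at the last base of the transcript. How many cells of those types the sorted samples held was not tested, since the list gives no expression level.

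Most of the 103 peaks of the neither kind lay over exons of a gene other than the one assigned. Such exons were overlapped by 100 of them, and 72 touched a 3' UTR of another gene only, whereas 980 of the 1025 intron-spanning and 147 of the 150 one-exon peaks overlapped a 3' UTR of the assigned gene. Only 51 were assigned to protein-coding genes, and 10 each were assigned to small nucleolar RNAs and processed pseudogenes. The wide peak of lowest p, with a log10 p of -3440 and a fold of 2.22 (chromosome 2, 122151109 to 122153083), was assigned to Patl2, of which it held 0 exonic nt, and it held 505 nt of exons of B2m, the light chain of MHC class I. Snora31, Snora69 and Snord14e were assigned peaks that held 417 nt of Tpt1, 389 nt of Rpl39 and 688 nt of Hspa8 exons, genes of a translationally controlled protein, a ribosomal protein and a chaperone. These examples were chosen after their values were seen. In all, 301 wide peaks (23.5%) overlapped an exon of another gene, in 228 of them on the other strand. The list gives no strand and none is stated for the counting, so such partners cannot be told apart.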

How the data were processed

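Splenic NK cell poly(A) RNA was measured by MeRIP-seq in 2 m6A immunoprecipitates and 2 inputs. The authors trimmed reads, aligned them with HISAT2 to GRCm38, called peaks with exomePeak and annotated them with ChIPseeker. In the deposited list, fold enrichment is a ratio of immunoprecipitate over input, the score is the log10 of the peak-calling p, and positions and widths are genomic bases. The deposited table has 20751 rows, of which 24 repeat another and were dropped. It pools the libraries and has 0 columns per sample, so depth, precision and per-sample tests are not available. How replicates were combined is not given in the sources used here.

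Each peak was compared with exons of its assigned gene and placed on the longest coding transcript in GENCODE release 21 (mouse) with python 3.11.15, pandas 2.3.3 and numpy 2.4.6. A peak was called within 1 exon if an exon of any transcript of that gene held its whole span. It was called intron-spanning if it held a whole annotated intron or at least 2 merged exon blocks. Motifs were read from GENCODE transcripts. Placement and classes were tested on simulated data. No test was run over peaks or genes, which are not replicates. Shares have 95% Wilson intervals.

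The peaks, classes and gene lists were chosen with earlier results of these data known. Named peaks are, in each class, the 4 of highest fold, lowest p and longest exonic part, the 3 longest spans, those at the width limit, and up to 5 genes per list by p. Other genes were named with their values known, as examples or to complete a list. A named peak under this rule is not reported here. Alternatives changed the width, fold and p thresholds, the transcript, the peak centre and the motif.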

Additional observations from a re-analysis of the deposited data

How the results depend on the processing

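Of 32 alternatives for 10 results, 12 stayed within the stated limits and 20 moved a value, and none turned a direction since no result had one. The number of wide peaks was 838 with a span over 2000 nt, 356 with an exonic part over 1000 nt and 831 with a fold of at least 2. The one-exon share of 11.7% was 9.46% on the longest coding transcript alone, 9.77% with p under 0.001 and 6.21% with a span over 2000 nt. With the fold threshold at 3 or 10, the share at high fold was 47.9% or 28.9% of all wide peaks and 40.6% or 22.4% of intron-spanning ones, and at 10 it was 72.7% of one-exon peaks. With p under 0.001 it was 31.1% and 24.2%, and the median fold was 42.9 within 1 exon and 2.07 across introns. Leaving out peaks over exons of another gene, an alternative chosen after seeing the data, gave 28.8% for intron-spanning and 88.3% for one-exon peaks. Centres in the 3' UTR made up 75.7% by the genomic midpoint, which fell in an exon for 177 peaks only, and 51.0% on the transcript of most overlap. The stop codon was held by 70.1% with p under 0.001. Sites per kb in one-exon peaks were 2.92 with GGAC in place of DRACH, a narrower motif. For the changes under the p threshold and without other genes' exons, the cause was not tested. No paired analysis was possible because the list has no column per library, and for the same reason no replicate was left out, and no other normalization or filter on low counts was run. Depth limits remain unknown.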
